A study of Homo sapiens with 6 samples.

Results

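The genes described here encode the factors that start and drive cytoplasmic protein synthesis, with the enzymes that modify them. They are the 62 rows of the deposited gene table, out of 40295, whose Ensembl identifier belongs to a protein-coding gene with a symbol that begins with EIF or EEF. Symbols that begin with EIF2AK (the eIF2 kinases) or EIF4EBP (the eIF4E-binding proteins) were left out, as were EIF4A3, which works in the exon junction complex, and EEF1E1, which works with the aminoacyl-tRNA synthetases. The table holds RNA-seq of HDQ-P1, an established human breast cancer cell line, as 6 libraries. In 3 of them the cells had received 1 μM Y-320, a phenylpyrazoleanilide studied as an enhancer of premature termination codon readthrough, for 48 h. The other 3 came from untreated cells, for which no vehicle is described, and the medium was the same high-glucose DMEM with serum. The comparison addresses how the compound alters the transcriptome, in a study that also examined protein synthesis.

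Initiation begins when eIF2, loaded with GTP and the initiator tRNA, joins the small ribosomal subunit together with eIF1, eIF1A, eIF3 and eIF5. The eIF4 proteins bind the mRNA cap, unwind the leader and bring in the subunit, which scans to the start codon, and eIF2B then reloads eIF2 with GTP. During elongation eEF1A delivers aminoacyl-tRNAs, the eEF1B complex recharges eEF1A, and eEF2 moves the ribosome along the mRNA. Stress kinases that phosphorylate the eIF2 alpha subunit block eIF2B, and in most cells the mRNAs of elongation factors are among the most abundant of all.

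Library totals were 21045401 to 22740535 estimated counts. The factors took 3.64% to 3.72% of the counts in the untreated libraries and 3.92% to 3.93% with Y-320. Values are given as CPM (counts on a common TMM-scaled library size) or, where different genes are compared, as a level per length (counts per kilobase of the canonical transcript, scaled to the same sum over all genes in each library). A level per length rests on the transcript length used, so it is also given on the mean length of a gene's annotated transcripts where that moves it by over 1.5 times. Changes are log2 fold changes of Y-320 over untreated from edgeR's quasi-likelihood test, and a gene was called higher or lower at an adjusted p under 0.05. Nothing in the labels says that the 3 libraries of a group came from separate cultures, so the p-values measure the spread between these libraries, which may be technical. In bulk RNA, fewer cells of one kind and less RNA per cell cannot be told apart. The epithelial markers KRT8, KRT18, KRT19, EPCAM, CDH1 and CLDN4 were all present (2 of the 6 were higher and 4 were lower). Their summed level, on library totals without TMM scaling, was 7490 to 7740 CPM in untreated and 4770 to 4790 CPM in treated libraries. The markers of other cell types, summed in the same way, came to 96.1 to 108 CPM and 115 to 128 CPM, with CD3E at or under 2 counts in every library. Of the 5 tested, CD68 and PECAM1 were higher, COL1A1 was lower (log2 fold change -0.70, from 49.3 to 30.5 CPM), and ACTA2 and PTPRC were not called. PTPRC lay under 1 CPM and below the untreated libraries in every treated one (log2 fold change -0.63, edgeR adjusted p = 0.104). The part of these marker shifts in the results below was not tested.

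Of the 62 genes, 57 passed the filter on low counts, and EEFSEC, EEF1AKMT4-ECE2, EIF1AY, EIF2S3B and EIF4E1B did not. Among them 23 were higher with Y-320, 13 were lower and 21 did not pass the threshold. This is 63.2% called, 40.4% higher and 22.8% lower, where the background over all 16580 genes tested was 51.5% called, 26.2% higher and 25.4% lower. Without Y-320 replicate 3, 8 were called lower in place of 13. That fit called 7702 of 16875 genes, where the main fit called 8546 of 16580. The changes were small. Their median absolute log2 fold change was 0.16, against 0.21 over all genes, and 5 of the 57 were called with a change of at least 0.5, against 15.7% of all genes. The median signed change was 0.03, beside 0.00097 over all genes. The treated and untreated libraries did not overlap for 38 members, beside 59.2% of all genes. With Y-320 the values lay higher for 23 of them and lower for 15, beside 29.8% and 29.4% of all genes.

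**Figure D1:**
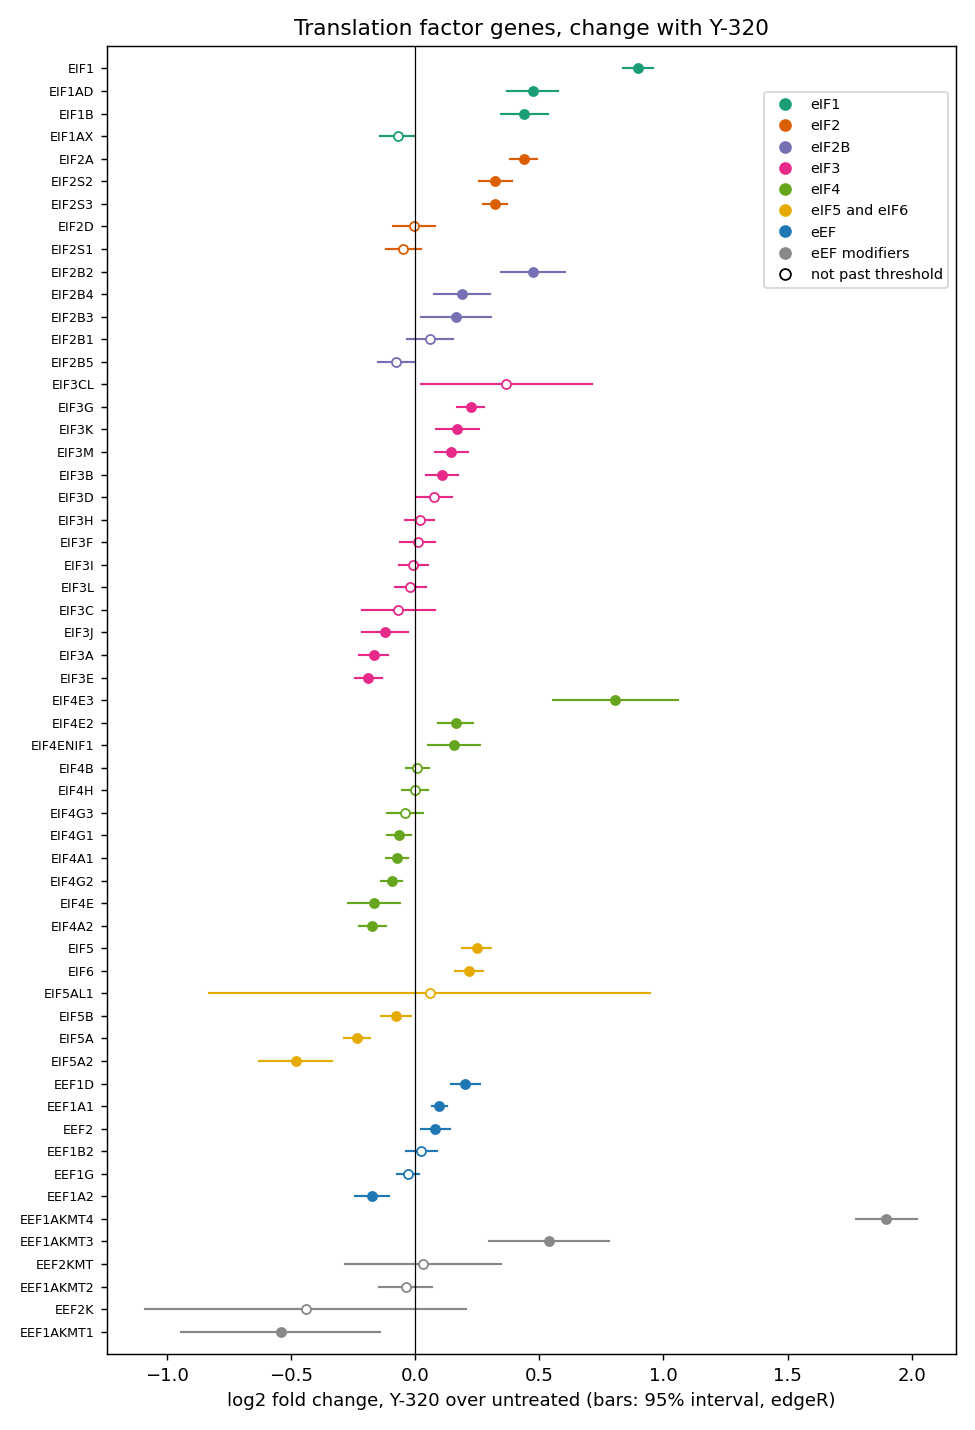
Log2 fold change of each tested factor, Y-320 over untreated, with its 95% interval from edgeR, ordered by group; filled points passed an adjusted p of 0.05. Most points lie within 0.5 of 0, with EEF1AKMT4 (1.90), EIF1 (0.90) and EIF4E3 (0.81) farthest to the right.

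Counts and directions by group were as follows, beside 26.2% higher and 25.4% lower over all genes tested. The groups follow gene symbol and role, and not every gene of a group encodes a subunit of the complex. For eIF2B 3 of 5 genes were higher and 0 lower (median log2 fold change 0.17), for eIF3 4 of 14 were higher and 3 lower (median 0.01), for eIF4 3 of 11 tested were higher and 5 lower (median -0.04), and for the elongation factors 3 of 6 tested were higher and 1 lower (median 0.05). Among the rest, 3 of 4 tested genes of the eIF1 group and 3 of 5 of the eIF2 group were higher and 0 lower, eIF5 and eIF6 had 2 of 6 higher and 3 lower, and the enzymes that modify elongation factors had 2 of 6 higher and 1 lower. The 3 higher eIF4 genes were EIF4E2, EIF4E3 and EIF4ENIF1, and the 5 lower ones were EIF4E, EIF4A1, EIF4A2, EIF4G1 and EIF4G2. No test of one group against another was made, because genes of a group are not replicates. The summed level per length went from 162 ± 5.08 to 174 ± 1.66 for eIF2B (mean ± SD, n = 3), from 3240 ± 33.1 to 3394 ± 12.6 for eIF3, from 3423 ± 25.0 to 3315 ± 18.6 for eIF4 and from 18820 ± 212 to 20060 ± 70.4 for the elongation factors. The treated and untreated sums did not overlap in any of these 4 groups, with eIF4 the one that lay lower, and most of the elongation factor sum was EEF1A1.

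The mRNAs of several factors belong to the terminal oligopyrimidine (TOP) class, whose start sites were read because such mRNAs begin with a C followed by a run of C and T, a run through which their translation is controlled. RefSeq windows on GRCh38.p14, from 250 bases before to 50 after the start, were found for 50 of the 62 genes (67 windows). Stretches of 30 bases, 10 before the start and 20 from it on, are shown for 6 factors with such a run, in capitals, and for EIF1, EIF2S1 and EIF2B2, which have none.
EEF1A1 (chr6:73521013-73521042, minus strand): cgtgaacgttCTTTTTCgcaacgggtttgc
EEF2 (chr19:3985444-3985473, minus strand): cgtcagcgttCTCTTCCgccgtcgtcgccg
EEF1B2 (chr2:206159885-206159914, plus strand): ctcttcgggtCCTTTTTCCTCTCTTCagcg
EIF3F (chr11:7987327-7987356, plus strand): cttccgcctcCTTCTTTCTCgacaagatgg
EIF2A (chr3:150546777-150546806, plus strand): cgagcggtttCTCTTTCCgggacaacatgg
EIF2S3 (chrX:24054946-24054975, plus strand): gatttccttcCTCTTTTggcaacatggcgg
EIF1 (chr17:41688875-41688904, plus strand): ccgcccctctgccccagtcactgagccgcc
EIF2S1 (chr14:67360318-67360347, plus strand): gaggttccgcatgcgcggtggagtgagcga
EIF2B2 (chr14:75002911-75002940, plus strand): cgcccgccccggaagtgcaaactgtgtggt

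A start C followed by at least 4 further pyrimidines was present in 13 of the 67 windows, 19.4%, against 4.07% of all 35116 windows. Over all genes tested 26.2% were higher and 25.4% lower. The 12 tested genes with such a start had 6 higher, 1 lower and 5 not called (median log2 fold change 0.08). The 33 tested genes with a window and no such start had 13 higher, 8 lower and 12 not called (median -0.01). EIF1, with the largest change among the factors, has no such run, and EEF1B2 and EIF3F, with runs of 16 and 10 bases, were not called. Another window of EEF1B2 has no such run.

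The start-site group held the largest change among the factors themselves. EIF1 (ENSG00000173812, chr17:41688885-41692668, plus strand) encodes the small protein that holds the scanning subunit open until it meets a start codon. It measured 373, 389 and 381 CPM in the untreated libraries and 687, 723 and 721 CPM with Y-320. The groups were far apart (log2 fold change 0.90, SE 0.0272, edgeR adjusted p = 3.19e-09, 1.86-fold). Its paralogue EIF1B measured 23.6, 23.8 and 24.6 CPM in the untreated libraries and 32.1, 33.3 and 32.3 CPM with Y-320 and was also higher in every treated library (log2 fold change 0.44, SE 0.0420, edgeR adjusted p = 1.03e-05). EIF1 changed more, and EIF1B went from 13.0% ± 0.316 to 9.80% ± 0.181 of their joint level per length. EIF1AD, which encodes a nuclear protein with an eIF1A-like domain, was higher too (log2 fold change 0.47). EIF1AX, the gene of eIF1A itself, measured 183, 171 and 169 CPM in the untreated libraries and 166, 165 and 168 CPM with Y-320. Its treated libraries lay below the untreated ones, but the difference missed the threshold (log2 fold change -0.07, SE 0.0323, edgeR adjusted p = 0.0968). With upper-quartile scaling EIF1AX was called lower (edgeR adjusted p = 0.0228). EIF1AY was removed by the filter, and its values are not given.

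EIF5 encodes the protein that makes eIF2 hydrolyse its GTP and that competes with eIF1 at the start codon. It measured 227, 230 and 221 CPM in the untreated libraries and 268, 273 and 264 CPM with Y-320, with every treated library higher (log2 fold change 0.25, SE 0.0261, edgeR adjusted p = 2.06e-05). The level of EIF1 per length was 4.02 to 4.22 times that of EIF5 in untreated cells and 6.28 to 6.68 times with Y-320, so the ratio did not overlap between groups. On the mean transcript length the ratio was 1.54 ± 0.0385 and 2.41 ± 0.0751 (mean ± SD, n = 3), again without overlap. BZW1 and BZW2, which encode proteins that mimic eIF5, went in opposite directions, with log2 fold changes of 0.76 and -0.35, both past the threshold.

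In the eIF2 trimer, 2 of the 3 subunit genes were called higher, beside 26.2% higher over all genes tested. EIF2S1, the alpha subunit that the stress kinases phosphorylate, measured 91.5, 88.1 and 86.2 CPM in the untreated libraries and 86.0, 84.9 and 86.3 CPM with Y-320. These ranges overlapped and the gene did not pass the threshold (log2 fold change -0.05, SE 0.0314, edgeR adjusted p = 0.246, 95% interval -0.12 to 0.02). EIF2S2, the beta subunit, measured 197, 193 and 189 CPM in the untreated libraries and 233, 243 and 248 CPM with Y-320. EIF2S3, the gamma subunit that binds GTP and the initiator tRNA, measured 463, 468 and 456 CPM in the untreated libraries and 574, 587 and 573 CPM with Y-320. Both were higher in every treated library (log2 fold change 0.32 each, SE 0.0300 and 0.0220, edgeR adjusted p = 8.41e-06 and 7.98e-07). Relative to EIF2S1, the level of EIF2S2 per length rose from a ratio of 3.49 to 3.57 in untreated libraries to 4.41 to 4.68 with Y-320, and that of EIF2S3 from 6.08 to 6.39 to 7.98 to 8.31. On the mean transcript length the ratio of EIF2S2 to EIF2S1 was 1.32 to 1.34 and 1.66 to 1.76, so its size depends on the length used while the treated libraries were higher on both. EIF2S2 shares 30.6% of its 31-base words with other genes, among which reads could be divided, chiefly a pseudogene with 0 to 9.14 counts. EIF2S3 shares 32.4%, chiefly with EIF2S3B, an intronless copy that had 1.39 to 2.79 counts.

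EIF2A (chr3:150546678-150586016, plus strand) encodes a single-chain protein that can bring initiator tRNA to the ribosome apart from eIF2. It measured 260, 261 and 252 CPM in the untreated libraries and 344, 352 and 350 CPM with Y-320. This was the largest change of the eIF2 group, with the groups well apart (log2 fold change 0.44, SE 0.0244, edgeR adjusted p = 1.87e-07). EIF2D, which encodes another initiator tRNA binding protein, had means of 48.3 CPM untreated and 48.2 CPM treated, and its log2 fold change was -0.0032 (95% interval -0.09 to 0.08).

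Among the 5 subunits of eIF2B, the exchange factor that reloads eIF2, the regulatory beta subunit had the largest change. EIF2B2 measured 27.2, 27.4 and 24.1 CPM in the untreated libraries and 38.5, 35.0 and 35.7 CPM with Y-320, with all treated libraries above the untreated ones (log2 fold change 0.48, SE 0.0586, edgeR adjusted p = 6.57e-05). EIF2B4, the delta subunit, measured 26.1, 25.7 and 23.8 CPM in the untreated libraries and 27.8, 28.9 and 29.6 CPM with Y-320 (log2 fold change 0.19, SE 0.0501, edgeR adjusted p = 0.00927). EIF2B3, the gamma subunit, measured 15, 14.0 and 13.8 CPM in the untreated libraries and 15.3, 16.1 and 16.7 CPM with Y-320 and passed by a narrow margin (log2 fold change 0.17, SE 0.0632, edgeR adjusted p = 0.0479). The treated values of both lay above the untreated ones, but close to them. EIF2B1, the alpha subunit, measured 36.5, 34.4 and 35.8 CPM in the untreated libraries and 37.8, 36.0 and 37.4 CPM with Y-320, which overlapped (log2 fold change 0.06, SE 0.0410, edgeR adjusted p = 0.246). EIF2B5, the catalytic epsilon subunit, measured 73.3, 76.1 and 70.9 CPM in the untreated libraries and 69.4, 69.8 and 69.9 CPM with Y-320. It lay lower in all treated libraries without passing the threshold (log2 fold change -0.08, SE 0.0338, edgeR adjusted p = 0.0881).

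The ratio of EIF2B2 to EIF2B5, both per length, was 0.202 to 0.220 in untreated cells and 0.299 to 0.330 with Y-320. On the mean transcript length it was 0.587 to 0.640 and 0.867 to 0.959, so how far EIF2B2 lay below EIF2B5 depends on the length used. The count of called eIF2B genes depended on the test. By DESeq2 EIF2B2 alone was called, with EIF2B4 at an adjusted p of 0.0681 and EIF2B3 at 0.252. DESeq2 also called fewer of all 16580 genes tested, 6683 against 8546 in the main fit. EIF2B3 lost its call without untreated replicate 2 (edgeR adjusted p = 0.126), untreated replicate 3 (0.135), Y-320 replicate 2 (0.104) or Y-320 replicate 3 (0.147). It also lost its call with no filter (edgeR adjusted p = 0.0786), with a stricter filter (0.0525) and by limma-voom (limma-voom adjusted p = 0.0501). With upper-quartile scaling EIF2B3 was not called (edgeR adjusted p = 0.0888) and EIF2B5 was called lower (log2 fold change -0.10, edgeR adjusted p = 0.0250), as it also was without untreated replicate 3 (edgeR adjusted p = 0.0436).

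**Figure D2:**
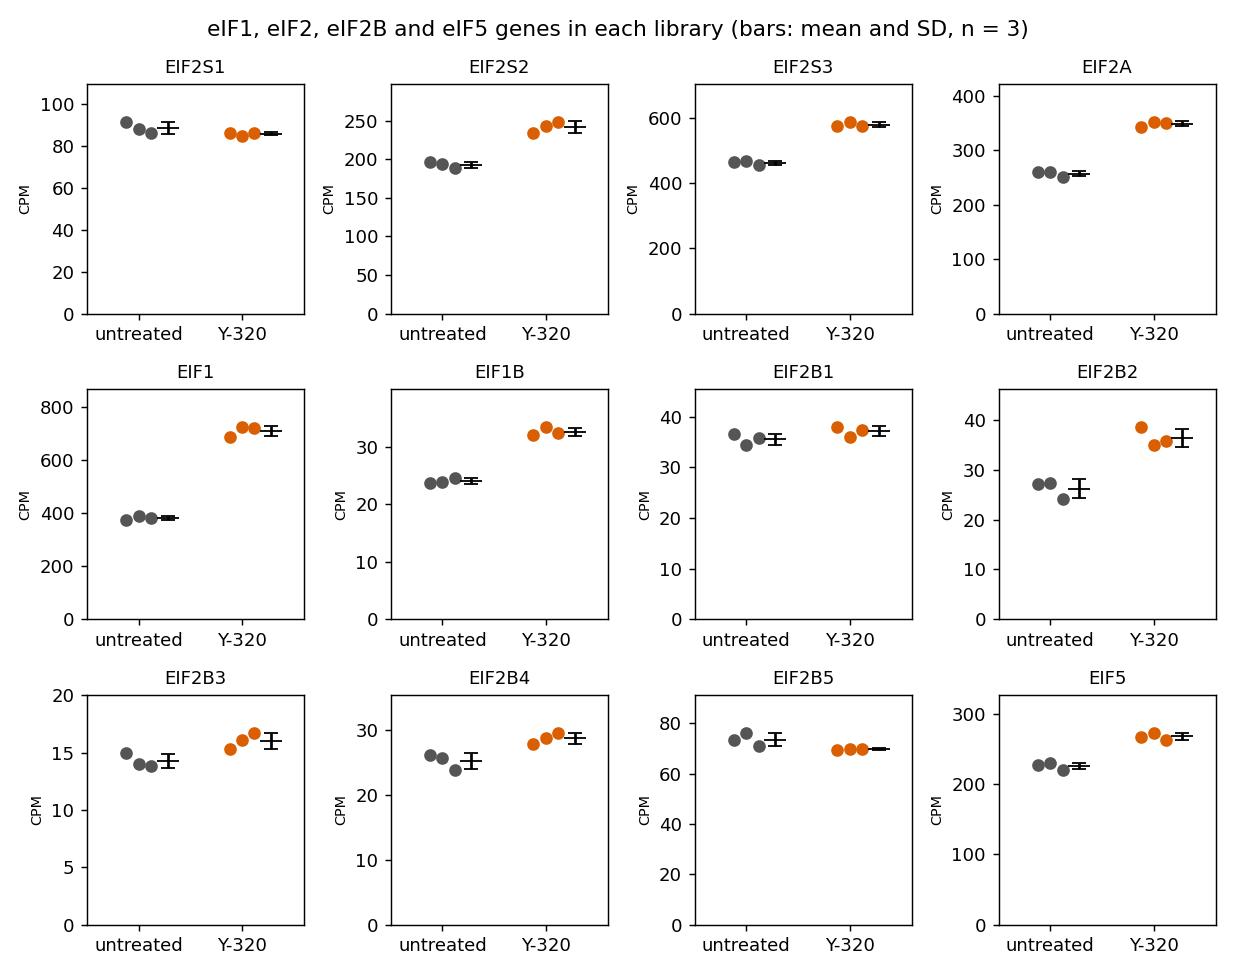
CPM of 12 genes of the eIF1, eIF2, eIF2B and eIF5 groups in each library, with the mean and SD of each group of 3. The groups are apart for EIF1, EIF1B, EIF2A, EIF2S2, EIF2S3, EIF2B2 and EIF5, and lie close or overlap for EIF2S1, EIF2B1, EIF2B3, EIF2B4 and EIF2B5.

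Genes that act on eIF2 were listed apart. Of the 4 eIF2 kinases and the 2 regulatory phosphatase subunits, 3 were higher, 1 was lower and 2 were not called, with a median log2 fold change of 0.22. Over all genes tested 26.2% were higher and 25.4% lower. EIF2AK3, the kinase PERK of the endoplasmic reticulum, had a log2 fold change of 1.35, and PPP1R15A, the subunit GADD34 that directs the phosphatase to eIF2, one of 1.22. PPP1R15B rose by 0.40 and EIF2AK2, the double-stranded RNA kinase PKR, fell by 0.30, both on the log2 scale.

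The eIF3 scaffold, which binds the small subunit and recruits the mRNA, changed little and in both directions. The largest increase past the threshold was that of EIF3G, an RNA-binding subunit, at 379, 396 and 379 CPM in the untreated libraries and 453, 448 and 447 CPM with Y-320 (log2 fold change 0.23, SE 0.0245, edgeR adjusted p = 2.64e-05). EIF3K, EIF3M and EIF3B were higher as well, with log2 fold changes of 0.17, 0.15 and 0.11. The largest decrease was that of EIF3E, at 415, 419 and 414 CPM in the untreated libraries and 357, 365 and 374 CPM with Y-320 (log2 fold change -0.19, SE 0.0242, edgeR adjusted p = 8.79e-05). For both EIF3G and EIF3E the treated and untreated libraries lay apart. EIF3A, the large core subunit, was lower, at a log2 fold change of -0.17 (SE 0.0264, edgeR adjusted p = 0.000398). EIF3J, the loosely attached subunit, was lower at -0.12 but lost its call when single libraries were left out, with edgeR adjusted p of 0.117 without untreated replicate 1, 0.0589 without untreated replicate 2, and 0.0768, 0.0641 and 0.0863 without Y-320 replicates 1, 2 and 3. It also lost its call with library size scaling (edgeR adjusted p = 0.0579) and by DESeq2 (DESeq2 adjusted p = 0.107).

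EIF3D, EIF3F, EIF3H, EIF3I and EIF3L were not called, with log2 fold changes from -0.02 to 0.08. EIF3D, the subunit that can bind the cap itself, was called higher without untreated replicate 2 (edgeR adjusted p = 0.0344) or Y-320 replicate 2 (0.0302), and with library size scaling (0.0316). The core subunit EIF3C and its near-identical copy EIF3CL divide their reads, since 98.4% of the 31-base words of EIF3CL occur in EIF3C. EIF3C measured 188, 195 and 210 CPM in the untreated libraries and 212, 178 and 177 CPM with Y-320. EIF3CL measured 63.6, 62.7 and 45.3 CPM in the untreated libraries and 56.1, 82.5 and 83.0 CPM with Y-320. Within each group the library with the highest EIF3C had the lowest EIF3CL, and both overlapped between groups (edgeR adjusted p = 0.441 and 0.0697). With no filter EIF3CL was called higher (edgeR adjusted p = 0.0182). Without Y-320 replicate 1 both genes were called, EIF3C lower (edgeR adjusted p = 0.0169) and EIF3CL higher (0.00338). Added together, a choice made after their values were seen, they had a log2 fold change of 0.04 (SE 0.0244, edgeR adjusted p = 0.168).

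The genes of the cap-binding proteins changed in opposite directions. EIF4E, which binds the mRNA cap to begin recruitment, measured 53.8, 49.7 and 48.8 CPM in the untreated libraries and 43.6, 45.3 and 47.0 CPM with Y-320. EIF4E2, also called 4EHP, a cap-binding protein that represses, measured 62.2, 63.2 and 63.1 CPM in the untreated libraries and 69.4, 69.6 and 72.2 CPM with Y-320. EIF4E3, the rarest of the 3 tested paralogues, measured 3.81, 3.54 and 3.26 CPM in the untreated libraries and 5.95, 6.59 and 6.05 CPM with Y-320. EIF4E was lower (log2 fold change -0.17, SE 0.0467, edgeR adjusted p = 0.0131), while EIF4E2 (log2 fold change 0.16, SE 0.0315, edgeR adjusted p = 0.0014) and EIF4E3 (log2 fold change 0.81, SE 0.113, edgeR adjusted p = 0.000164) were higher, and none of the 3 overlapped between groups. Of their joint level per length, EIF4E held 23.5% to 25.5% in untreated and 19.9% to 20.4% in treated libraries. On the mean transcript length these shares were 61.5% to 64.0% and 55.9% to 56.8%, so which of EIF4E and EIF4E2 was the more abundant cannot be told from these levels, while the share of EIF4E was lower in the treated libraries on both lengths. EIF4E3 held 0.382% to 0.724% over all 6 libraries, or 1.34% to 2.68% on the mean transcript length. EIF4ENIF1, the transporter 4E-T that carries eIF4E into the nucleus, was higher at a log2 fold change of 0.16. It lost its call without untreated replicate 2 (edgeR adjusted p = 0.0682), Y-320 replicate 1 (0.0614) or Y-320 replicate 2 (0.0559), and by DESeq2 (DESeq2 adjusted p = 0.138).

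Motifs of regulators of stress and growth were searched on both strands of the RefSeq windows, and no match overlapped another. TGATGNAA, the composite element of C/EBP and ATF4, was found in 1 of 67 windows, 1.49%, against 3.62% of all windows. That window is 1 of the 3 of EIF4E3, whose last 60 bases before the start are shown with the match in capitals.
EIF4E3 (chr3:71729119-71729178, minus strand): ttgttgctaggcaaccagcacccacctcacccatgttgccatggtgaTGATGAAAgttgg

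Of the 5 helicase and scaffold genes of eIF4, 4 were called lower, all by small amounts, beside 25.4% lower over all genes tested. The helicase cofactors EIF4B and EIF4H, given below, were not called. EIF4A1, the main RNA helicase, measured 736, 737 and 723 CPM in the untreated libraries and 698, 702 and 691 CPM with Y-320 (log2 fold change -0.07, SE 0.0198, edgeR adjusted p = 0.0127). EIF4A2, its paralogue, measured 534, 542 and 536 CPM in the untreated libraries and 467, 473 and 491 CPM with Y-320 (log2 fold change -0.17, SE 0.0243, edgeR adjusted p = 0.000173). Both lay lower in every treated library, and EIF4A2 went from 40.6% ± 0.268 to 38.9% ± 0.774 of their joint level per length. Without Y-320 replicate 3, EIF4A1 was not called (edgeR adjusted p = 0.0604). Transcripts of other genes hold 43.9% of the 31-base words of EIF4A1, among which its reads could be divided. The gene that holds most of these (37.1% of the words of EIF4A1) was not among the genes with deposited counts. The 13 listed pseudogene copies of EIF4A1 together held 0.694% as many counts.

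The scaffold EIF4G1, which ties the cap-binding protein to the helicase, was at 804, 782 and 771 CPM in the untreated libraries and 760, 744 and 753 CPM with Y-320. The treated libraries lay lower with no overlap (log2 fold change -0.06, SE 0.0222, edgeR adjusted p = 0.035). The call was lost without untreated replicate 1 (edgeR adjusted p = 0.0783), untreated replicate 2 (0.0628), Y-320 replicate 2 (0.136) or Y-320 replicate 3 (0.0924). It was also lost with library size scaling (edgeR adjusted p = 0.0859) and with no filter (0.094). EIF4G2, a scaffold that lacks the cap-binding partner site, measured 774, 764 and 772 CPM in the untreated libraries and 721, 728 and 717 CPM with Y-320 (log2 fold change -0.09, SE 0.0192, edgeR adjusted p = 0.00221). EIF4G3 measured 135, 127 and 135 CPM in the untreated libraries and 131, 128 and 127 CPM with Y-320, which overlapped (log2 fold change -0.04, SE 0.0321, edgeR adjusted p = 0.325). EIF4G1 held 38.9% to 40.1% of the joint level of the 3 scaffolds per length in all 6 libraries, with the groups overlapping.

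EIF4B, the helicase cofactor, measured 676, 694 and 700 CPM in the untreated libraries and 699, 688 and 698 CPM with Y-320. Its groups overlapped and the interval was narrow around 0 (log2 fold change 0.01, SE 0.0215, edgeR adjusted p = 0.727, 95% interval -0.04 to 0.06). The related EIF4H was at a log2 fold change of 0.00 (95% interval -0.05 to 0.05). EIF4E1B, an oocyte form of the cap-binding protein, had 2 to 6 counts in every library and was not tested.

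Of 9 regulators of eIF4E and eIF4A, 3 were higher, 2 were lower and 4 were not called, with a median log2 fold change of -0.02. Counts of this list and the next ones stand beside 26.2% higher and 25.4% lower over all genes tested. EIF4EBP1, which holds eIF4E inactive, had the largest change at 0.84. The eIF4E kinases MKNK2 and MKNK1 were higher at 0.24 and 0.19, and PDCD4, which blocks eIF4A, was lower at -0.15. The poly(A)-binding proteins, which join the end of the mRNA to eIF4G, and their partners were mostly lower, with 3 of 5 lower and 1 higher (PAIP2B -0.46, PABPC4 -0.18, PABPC1 -0.16 and PAIP2 0.15). Of 8 other initiation and recycling factors, 2 were higher and 5 lower. BZW1 and BZW2, given above, had the largest changes in either direction, and DENR, a reinitiation factor, and DHX29, a helicase for structured leaders, were lower at -0.29 and -0.27.

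EIF5A, named as an initiation factor but best known for keeping elongation and termination going at difficult sequences, measured 936, 899 and 887 CPM in the untreated libraries and 777, 769 and 771 CPM with Y-320. Every treated library was lower (log2 fold change -0.23, SE 0.0236, edgeR adjusted p = 1.63e-05). EIF5A2, its rarer paralogue, measured 18.9, 18.4 and 17.1 CPM in the untreated libraries and 12.3, 13.3 and 13.4 CPM with Y-320 and was also lower in every treated library (log2 fold change -0.48, SE 0.0654, edgeR adjusted p = 0.000134). EIF5A2 held 0.359% to 0.466% of their joint level per length over all 6 libraries, or 1.11% to 1.44% on the mean transcript length. EIF6, which keeps the large subunit from joining too early, was higher (log2 fold change 0.22, SE 0.0255, edgeR adjusted p = 4.54e-05). EIF5B, the GTPase of subunit joining, was lower at -0.08 (edgeR adjusted p = 0.0346). The call was lost without untreated replicate 1 (0.0912), untreated replicate 3 (0.0532), Y-320 replicate 2 (0.140) or Y-320 replicate 3 (0.0613). It was also lost with library size scaling (edgeR adjusted p = 0.0759), with no filter (0.0728) and by DESeq2 (DESeq2 adjusted p = 0.0883). EIF5AL1, a copy of EIF5A, passed the filter with only 7.91, 6.59 and 13.6 counts without Y-320 and 7.44, 13.3 and 11.1 counts with it, and its interval was wide (95% interval -0.83 to 0.95).

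EIF5A works only after a lysine is turned into hypusine, and eEF2 carries the modified histidine diphthamide. Of 9 enzymes that make these residues, 5 were higher, 2 lower and 2 not called, with a median log2 fold change of 0.18. Over all genes tested 26.2% were higher and 25.4% lower. The diphthamide genes DPH2 and DPH7 were higher at 0.64 and 0.54, and DPH6 was lower at -0.43. DOHH, which completes hypusine, was higher at 0.26.

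**Figure D3:**
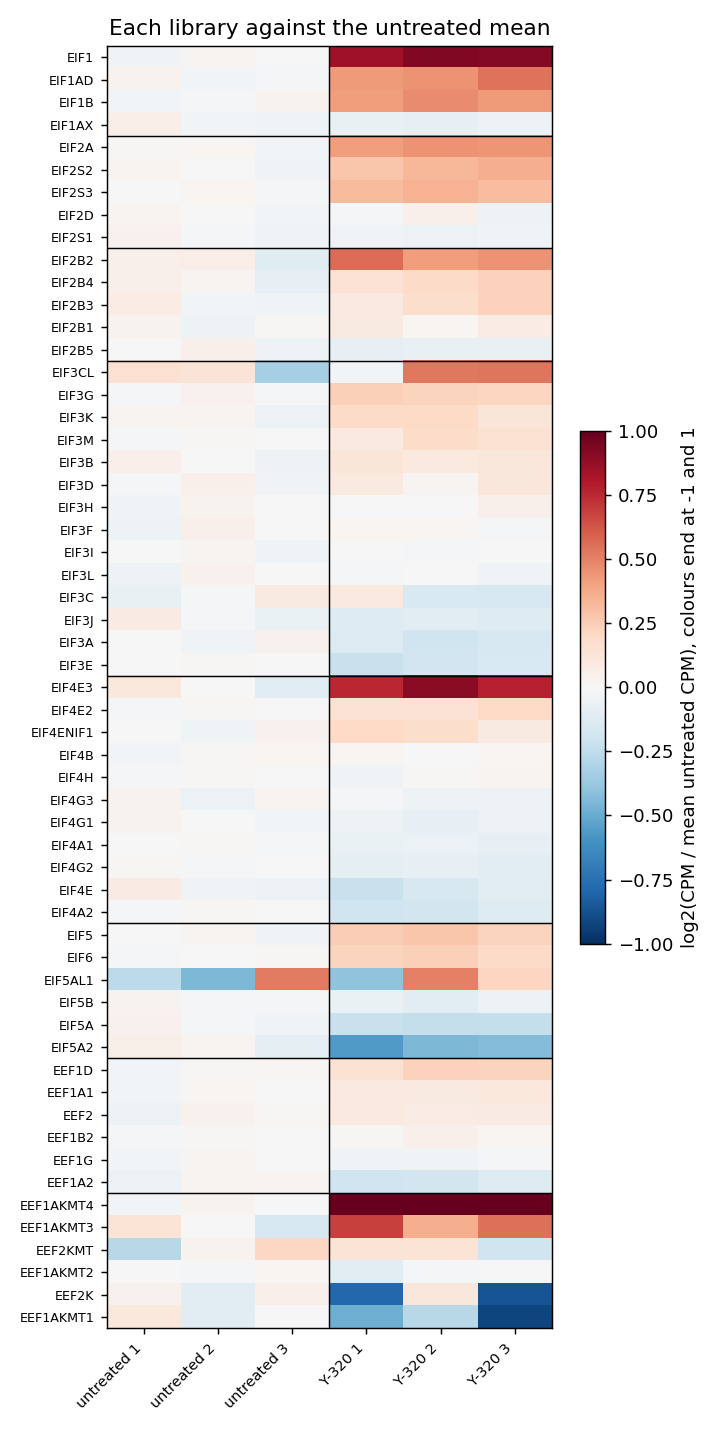
Each library against the untreated mean for the 57 tested factors, as log2 of the CPM ratio, ordered by group and then by change; colours end at -1 and 1. The 3 treated columns are alike for most genes, while EIF3CL, EIF5AL1 and EEF2K differ between libraries of one group.

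Among the elongation factors EEF1A1 had the most counts of any gene of the table in all 6 libraries. EEF1A1 (chr6:73489308-73525587, minus strand), the common form of eEF1A, took 2.09% to 2.15% of all counts in untreated and 2.29% to 2.30% in treated cells. It measured 20960, 21720 and 21430 CPM in the untreated libraries and 22860, 22800 and 22990 CPM with Y-320. The increase was small but clear of the spread (log2 fold change 0.10, SE 0.0141, edgeR adjusted p = 0.000183, 7.10% on the linear scale). EEF1A2, the second form, which is best known from muscle and neurons, measured 242, 257 and 256 CPM in the untreated libraries and 219, 221 and 229 CPM with Y-320 and went the other way (log2 fold change -0.17, SE 0.0310, edgeR adjusted p = 0.00087). Its share of their joint level per length was 2.28% ± 0.0425 and 1.89% ± 0.035. EEF1A1 shares 25.0% of its 31-base words with other genes, and its 49 listed pseudogene copies together held 0.607% as many counts.

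EEF2, the translocase, measured 2053, 2210 and 2160 CPM in the untreated libraries and 2290, 2251 and 2261 CPM with Y-320. Treated libraries were higher by 5.91% (log2 fold change 0.08, SE 0.0255, edgeR adjusted p = 0.0197). The call was lost with upper-quartile scaling (edgeR adjusted p = 0.118) and without Y-320 replicate 1 (0.0519). Its rank among all genes by counts was 18 to 20 in the untreated and 12 to 13 in the treated libraries. The rank depends on other genes as well. KRT8, KRT19 and RPS2 lay above EEF2 in mean untreated CPM (2810, 2530 and 2200) and below it with Y-320 (1390, 1650 and 2040). The level of EEF1A1 per length was 8.84 to 9.18 times that of EEF2 in untreated cells and 8.98 to 9.14 times with Y-320, so this ratio overlapped between groups. On the mean transcript length it was 3.76 to 3.90 and 3.82 to 3.89, which overlapped too.

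TGACGTCA, the full cyclic AMP response element, was found in 1 of the 67 windows, 1.49% against 1.85% of all windows. It is that of EEF2, at 13 to 6 bases before the start. Motif matches describe the letters of a window and say nothing about binding.

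Of the eEF1B complex that recharges eEF1A, 1 subunit passed the threshold, beside 51.5% of all genes tested. EEF1D, the delta subunit, measured 374, 384 and 383 CPM in the untreated libraries and 423, 446 and 444 CPM with Y-320 and was higher (log2 fold change 0.20, SE 0.0264, edgeR adjusted p = 9.51e-05). EEF1B2 (beta) and EEF1G (gamma) were at log2 fold changes of 0.03 (95% interval -0.03 to 0.09) and -0.03 (95% interval -0.07 to 0.01). With upper-quartile scaling EEF1G was called lower (edgeR adjusted p = 0.034). EEF1G shares 97.6% of its words with other genes, chiefly a readthrough gene that covers it and held 152 to 218 counts, where EEF1G held 36813 or more. EEFSEC, the factor for selenocysteine, had 1.93, 7.25 and 9.25 counts without Y-320 and 5.49, 14.8 and 3.72 counts with it and was removed by the filter.

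**Figure D4:**
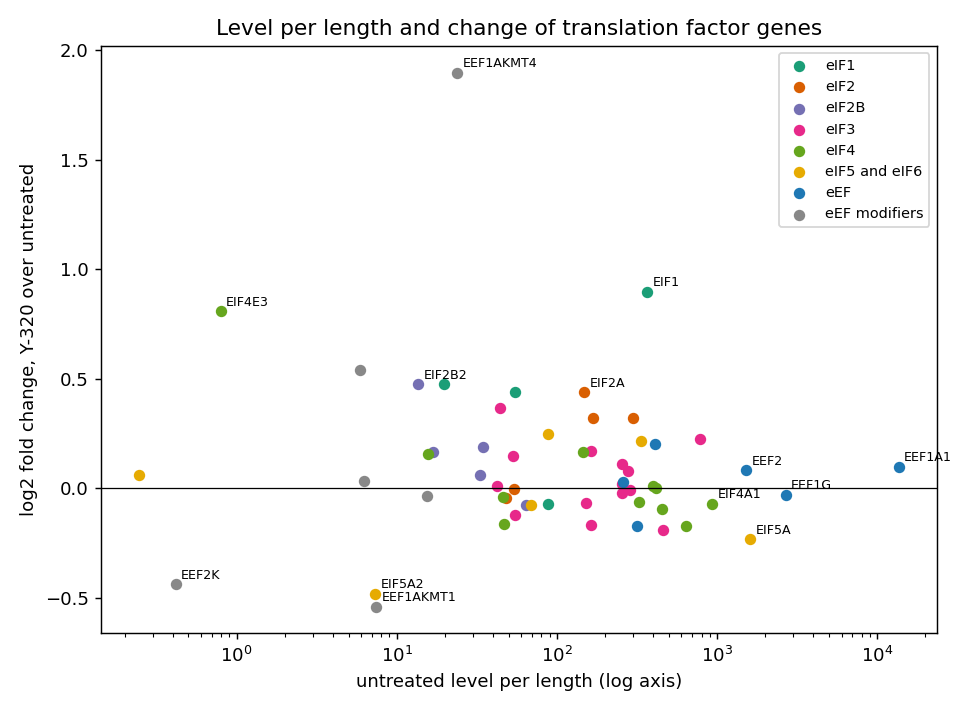
Untreated level per length (log axis) against the log2 fold change of each tested factor. EEF1A1 is farthest to the right at 13630, and EEF1AKMT4, EIF1 and EIF4E3 are at the top.

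The levels per length spanned a wide range in untreated cells. EEF1A1 was the most abundant on both lengths, at 13630 ± 133 (mean ± SD, n = 3) on the canonical transcript and 13970 on the mean transcript length. The order after it depends on the length. On the canonical transcript EEF1G at 2684 ± 25.9, EIF5A at 1609 ± 56.1, EEF2 at 1519 ± 44.1, EIF4A1 at 933 ± 11.4 and EIF3G at 781 ± 13.6 followed. On the mean transcript length EEF2 came first of these at 3660, then EEF1G at 2003, EIF4A1 at 1317 and EIF5A at 1224, and both EIF4G2 at 831 and EIF4B at 806 lay above EIF3G at 740. EIF1 moved from 365 ± 4.70 to 688 ± 19.4, past EIF4A2, which went from 639 ± 0.719 to 573 ± 14.5, and it also passed EIF4A2 on the mean transcript length (424 to 799 against 717 to 644). Across the 57 genes the level and the log2 fold change had a Spearman rho of -0.152, given as a description over genes that share the same libraries.

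The enzymes that modify elongation factors held the largest change of the 57 tested genes. EEF1AKMT4 (ENSG00000284753, chr3:184249672-184258759, plus strand) encodes a methyltransferase for a lysine of eEF1A. It measured 10.1, 10.6 and 10.3 CPM in the untreated libraries and 40.2, 36.6 and 38.8 CPM with Y-320. That is 3.73-fold higher with no overlap (log2 fold change 1.90, SE 0.0555, edgeR adjusted p = 2.51e-09). It shares 47.9% of its 31-base words with EEF1AKMT4-ECE2, a readthrough gene into the neighbouring ECE2. The readthrough gene had 0 counts in every library, which allows up to 3 counts or 0.132 to 0.143 CPM each (counting error only, without TMM scaling). ECE2 had 0 to 2 counts.

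CACGTG, the E-box read by MYC and TFE3, was found in 13 of 67 windows, 19.4%, against 7.26% of all windows. EEF1AKMT4 and its readthrough gene share a window, which counted for both. The 11 tested genes with the motif had 4 higher, 3 lower and 4 not called, beside 26.2% higher and 25.4% lower over all genes tested. Their median log2 fold change was 0.01, with a range from -0.48 (EIF5A2) to 1.90 (EEF1AKMT4). The 250 bases before the start of EEF1AKMT4, the gene with the largest change, hold 2 matches, in capitals.
EEF1AKMT4 (chr3:184249422-184249671, plus strand): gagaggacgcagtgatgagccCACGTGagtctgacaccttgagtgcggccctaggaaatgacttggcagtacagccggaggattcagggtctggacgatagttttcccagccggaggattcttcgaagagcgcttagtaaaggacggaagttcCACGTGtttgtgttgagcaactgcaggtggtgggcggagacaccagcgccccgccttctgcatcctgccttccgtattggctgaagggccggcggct

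The other eEF1A lysine methyltransferase genes changed in both directions or were not called. EEF1AKMT3 was higher at a log2 fold change of 0.54 (SE 0.108, edgeR adjusted p = 0.00187), from a level of 7.07 CPM. EEF1AKMT1 was the one past the threshold in the other direction, at 3.76, 3.26 and 3.49 CPM in the untreated libraries and 2.50, 2.88 and 1.85 CPM with Y-320 (log2 fold change -0.54, SE 0.180, edgeR adjusted p = 0.0281). All its treated values lay below the untreated ones, but its call was lost without untreated replicate 1 (edgeR adjusted p = 0.0849), untreated replicate 3 (0.0623) or Y-320 replicate 3 (0.0873), and by DESeq2 (0.0879). EEF1AKMT2 and EEF2KMT, the methyltransferase of eEF2, were at log2 fold changes of -0.04 and 0.03 and were not called.

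EEF2K, the kinase that phosphorylates eEF2 and so slows elongation, was low. It had 31.3, 26.7 and 31.5 counts without Y-320 and 18.3, 32.5 and 16.8 counts with it. Treated replicate 2 was as high as the untreated libraries and the other treated libraries were lower, and the gene was not called (log2 fold change -0.44, SE 0.290, edgeR adjusted p = 0.238). Without Y-320 replicate 2 it was called lower (log2 fold change -0.83, edgeR adjusted p = 0.0313).

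Lists of neighbouring pathways are given by their counts, beside 26.2% higher and 25.4% lower over all genes tested. Of 6 genes of mTORC1 and the ribosomal S6 kinases, 3 were higher and 0 lower (MTOR 0.21, RPS6KB2 0.19 and RPS6KA3 0.09), with a median log2 fold change of 0.05. Of 10 factors that translate mitochondrial mRNAs, 3 were higher and 3 lower, with MTIF3 at 0.24 and GFM2 at -0.21. EIF4A3 and EEF1E1, which the choice of genes left out, were both not called. The 79 cytosolic ribosomal protein genes had 4 higher and 23 lower, with a median log2 fold change of -0.04. This is 34.2% called, 5.06% higher and 29.1% lower, where 51.5% of all genes tested were called. The 10 factors listed as having TOP mRNAs, the class of the ribosomal protein mRNAs, had 3 higher (EEF1D, EEF1A1 and EEF2), 2 lower (EIF3E and EIF3A) and 5 not called. This list came from general knowledge and not from the start sites read above. The window of EEF1G has no such run, and EEF1D, EIF3A, EIF3E and EIF3H had no window. No test compared these lists.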

How the data were processed

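RNA-seq was compared between 3 untreated and 3 Y-320 libraries of HDQ-P1 cells, grouped by their labels. The authors deposited estimated counts per Ensembl gene, without normalization. The submitters' processing notes name kallisto 0.46.1 and GRCh38, and the Ensembl release is not given in the sources used here. kallisto divides reads among transcripts, so genes with near-identical copies are uncertain. No value column was left unused.

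Identifiers were matched to symbols for 35390 of 40295 rows, and counts were rounded. In edgeR 4.0.16 (R 4.3.3), genes with low counts were removed by filterByExpr (minimum 10 counts, 15 in total), and after TMM scaling it fitted the quasi-likelihood model to all 16580 genes left, with Benjamini-Hochberg adjustment over all of them and a threshold of 0.05. The script was tested on simulated data. Alternatives were DESeq2 1.42.0, limma-voom (limma 3.58.1), other scalings and filters, unrounded counts, a block for the replicate number, fits without each library, a threshold of 0.01, adding pseudogene copies and another length. Levels per length used the canonical transcript of GENCODE 44, which also gave positions on hg38 and, as the share of 31-base words found in another gene, read sharing. Of the 62 genes, 19 shared over 20% of these words. Promoter windows came from RefSeq. Plots and tables used Python 3.11.15, numpy 2.4.6, pandas 2.3.3 and matplotlib 3.10.9.

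The members and lists were chosen, from general knowledge, with earlier results of these data known. Every member may be named. Values in each library are given for the member with the largest increase and the largest decrease past the threshold in each group (mean of at least 1 CPM), the eIF2B subunits, the paralogue sets and the factors with a named role above. Lists name up to 4 members by size of change past the threshold. At these depths 3 counts, the most that a count of 0 allows, are 0.132 to 0.143 CPM on library totals without TMM scaling.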

Additional observations from a re-analysis of the deposited data

How the results depend on the processing

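No fold change of a tested factor reversed where it was called. Over the 57 genes and the alternatives at the threshold of 0.05, 914 fits left a gene called or not called as in the main fit. Another 42 lost a call and 11 gained one. Under all of these alternatives 41 genes stayed as they were, whether called or not called. The count of eIF2B genes called was 3, and 1 with DESeq2. By DESeq2 20 factors were higher and 10 lower, and 6683 of all 16580 genes tested were called, against 8546 in the main fit. With a threshold of 0.01, 20 factors were higher (23 at 0.05), 7 were lower (13 at 0.05) and 4 eIF4 genes were called (8 at 0.05). The share of all genes called at 0.01 was not computed. With each library left out in turn, 22 to 23 factors were higher and 8 to 13 lower, the lowest without Y-320 replicate 3. The counts called were then 2 to 3 for eIF2B, 6 to 8 for eIF3, 6 to 8 for eIF4 and 3 to 4 for the elongation factors. Over all genes tested, these fits called 7667 to 7972, against 8546 in the main fit. With the replicate number as a block, 22 were higher and 13 lower, with 8444 of all genes called, and EIF2B3 lost its call (edgeR adjusted p = 0.0747). Libraries with the same number did not deviate together (r across genes from -0.00236 to 0.0155). Whether they were prepared together is not given in the labels, and such values cannot tell. Upper-quartile scaling gave 21 higher and 16 lower, called 8663 of all genes and moved the median of all genes by less than 0.03. With the mean transcript length in place of the canonical one, the untreated level was 13970 for EEF1A1 (13630), 3660 for EEF2 (1519) and 1317 for EIF4A1 (933). Within a group, pairs of libraries had a chi-square per degree of freedom of 2.02 to 2.98, so no pair was alike within sampling noise. The members under the filter had at most 14.8 counts in a library. They were not tested in the main fit, so no change is given for them.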
